A study of Mus musculus with 6 samples.

Results

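The mitochondrial ribosomal protein genes were examined as a group in naive CD4+ T cells of the spleen and of the mesenteric lymph node (mLN). Members were the protein-coding mouse genes whose symbol starts with Mrpl or Mrps followed by a digit, pseudogenes excluded, as named in the GENCODE vM21 annotation. The rule gave 78 genes of the 55487 listed identifiers, and all 78 were among the 12486 genes that passed the filter on low counts. By the composition of the mammalian mitochondrial ribosome, 51 of them encode proteins of the large subunit and 26 encode proteins of the small subunit. The remaining one, Mrps36, keeps its ribosomal name but encodes a component of the α-ketoglutarate dehydrogenase complex.

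Mitochondria carry their own ribosomes, which translate the few messenger RNAs of the mitochondrial genome into core subunits of the respiratory chain and of ATP synthase. All proteins of these ribosomes are encoded in the nucleus, made in the cytosol and imported, whereas their ribosomal RNAs come from the mitochondrial genome. Some of the proteins descend from bacterial ribosomal proteins, and others were added during the evolution of mitochondria. In T cells, mitochondrial translation is known to be needed for the growth in respiration that follows activation, and naive cells, which have not met antigen, are in a resting state.

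Polyadenylated RNA was sequenced from 3 spleen libraries and 3 mLN libraries. Both groups were freshly prepared naive CD4+ T cells of wild-type C57BL6/J mice with no treatment, so the tissue of origin was the only labelled difference. The labels state neither age, nor sex, nor how the cells were sorted, nor whether replicates were separate animals. The p-values below therefore reflect the scatter among these libraries alone, which may be technical. Expected counts, the estimated number of fragments per gene, summed to between 13205499 and 20054205 per library. A member had between 80 counts (Mrpl14) and 1899 counts (Mrpl24) in a library, with a median of 348.5. The median standard error (SE) of a member's log2 fold change was 0.15, against 0.14 over all tested genes.

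Cd4, the co-receptor of helper T cells, was abundant in both groups, with 879 to 962 CPM in every library. CPM are counts relative to the normalized library total. The summed level of 10 naive CD4+ T cell markers was 6427 to 6651 CPM in spleen and 5987 to 6120 CPM in mLN. Of these 10, 4 were lower in mLN and 3 higher by edgeR's quasi-likelihood test. For this list and the marker lists below, the shares over all tested genes were 13.5% lower and 16.1% higher. RNA of other cell types was more abundant in the spleen libraries. The summed level of 10 B cell markers was 35.9 to 42.7 CPM in spleen and 12.3 to 20.8 CPM in mLN, and 6 of the 10 tested were lower in mLN. For 10 neutrophil markers the sums were 34.5 to 40.7 CPM and 0.30 to 1.39 CPM, and all 7 tested were lower, while Elane was at 0 in every library and Retnlg in every mLN library. For 12 monocyte and macrophage markers they were 255.1 to 272.4 CPM and 172.0 to 181.5 CPM, with 7 of 8 tested lower and Spic at 0 in mLN. The log2 fold changes of those 8 had a median of -3.18, from -5.01 to -0.37, a larger fall than that of the sum. For 7 dendritic cell markers the sums were 5.86 to 9.83 CPM and 0.751 to 1.17 CPM, with 2 of 3 tested lower and Clec9a and Flt3 at 0 in mLN. Neither the single tested erythroid marker of 8 nor the 6 tested CD8 T cell and NK cell markers of 8 were called. Their sums were 3.46 to 4.18 CPM in spleen and 1.96 to 2.78 CPM in mLN for the erythroid list, and 22.1 to 28.3 CPM and 15.4 to 25.6 CPM for the other. The part of these cells in the results below was not tested. In bulk RNA, fewer cells of a type and less RNA per cell cannot be told apart.

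Per length, the members were expressed at moderate levels, with means from 7.76 TPM for Mrpl1 to 176.0 TPM for Mrps21. The TPM values, which scale counts by transcript length and then to a fixed total, had a median of 36.3 over the members, taking each gene's mean over the 6 libraries, and 49 of the 78 lay between 20 and 60 TPM. The medians were 35.5 TPM for the large subunit and 39.4 TPM for the small subunit. On the same scale the tested cytosolic ribosomal protein genes had a median of 3294 TPM and the nuclear genes of oxidative phosphorylation 114.7 TPM.

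The order of levels was led by Mrps21 with 176.0 TPM, Mrpl24 with 164.0 TPM, Mrpl30 with 149.6 TPM and Mrps23 with 134.9 TPM. Mrps21 read 161, 159 and 223 TPM in spleen replicates 1 to 3 and 183, 165 and 166 TPM in mLN. Mrpl24 read 183, 159 and 140 TPM in spleen and 176, 165 and 162 TPM in mLN. The ranges of these leading genes overlapped, so their order was not resolved beyond the spread between libraries. At the other end stood Mrpl1 with 7.76 TPM, Mrpl19 with 8.99 TPM, Mrpl35 with 9.61 TPM and Mrpl45 with 11.9 TPM. Mrpl1 belongs to the mobile L1 stalk, and Mrpl45 sits where the nascent chain leaves the ribosome at the inner membrane. Mrpl35 ranged from 5.17 TPM in mLN replicate 3 to 17.5 TPM in spleen replicate 3, a span that took in the other low genes. The lowest and the highest members did not overlap.

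Counted as a share of each library, the 78 genes together took less in mLN than in spleen. They made up 0.212%, 0.208% and 0.212% of the expected counts in spleen replicates 1 to 3, a mean of 0.211% ± 0.00262 (SD, n = 3). In mLN they made up 0.185%, 0.185% and 0.187%, a mean of 0.186% ± 0.00122 (SD, n = 3). All mLN libraries lay below all spleen libraries on this scale. The sum of their TPM values did not separate the groups. It was 3500, 3501 and 3565 TPM in spleen, a mean of 3522 ± 37.1 (SD, n = 3). In mLN it was 3458, 3520 and 3598 TPM, a mean of 3525 ± 69.9 (SD, n = 3), and the ranges overlapped.

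**Figure D1:**
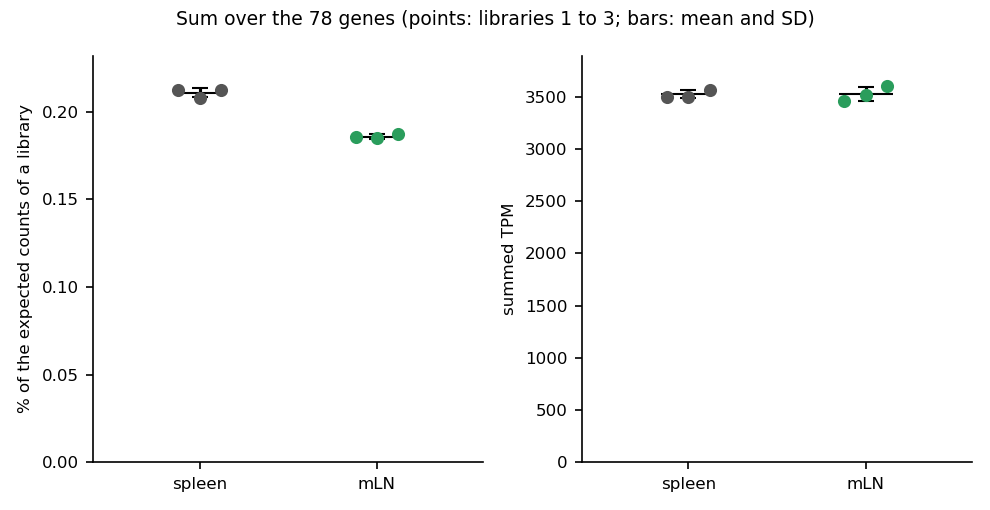
Sum over the 78 mitochondrial ribosomal protein genes in each library, as a percentage of the expected counts (left axis) and as summed TPM (right panel axis), with points for libraries 1 to 3 of spleen (grey) and mLN (green) and bars for the mean and SD. The shares of counts fall from about 0.211% to 0.186% with no overlap, while the summed TPM values overlap between 3458 and 3598.

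Gene by gene, lower values in mLN predominated among the members on the count scale. By edgeR's quasi-likelihood test on the expected counts with Benjamini-Hochberg adjustment over all 12486 genes, 19 of 78 members passed an adjusted p of 0.05 with lower values in mLN, none with higher values, and 59 were not called. Over all tested genes, 13.5% were called lower and 16.1% higher. The members' median log2 fold change, mLN minus spleen, was -0.26, against -0.01 over all tested genes. It was below 0 for 63 members, and the members ranged from -0.86 for Mrps18c to 0.25 for Mrps26. At an unadjusted p under 0.05, 33 members were lower and 1, Mrps26, was higher. The share of all tested genes was not taken at that threshold, so these counts lack a baseline. In normalized CPM, 38 members had all mLN libraries below all spleen libraries, 2 had them above and 38 overlapped, where 20.3% of all tested genes lay below and 21.5% above without overlap.

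Both subunits held lower calls. Of the 51 large subunit genes, 11 were lower and none higher, with a median of -0.26. Of the 26 small subunit genes, 8 were lower and none higher, also with a median of -0.26. By descent, 6 of 30 large subunit genes with a bacterial counterpart and 5 of 21 without one were lower, with medians of -0.26 and -0.30. In the small subunit, 6 of 16 genes with a bacterial counterpart and 2 of 10 without one were lower, with medians of -0.23 and -0.26. Mrps36, the gene outside the ribosome, read 10.96, 13.75 and 12.96 CPM in spleen and 7.43, 9.38 and 10.01 CPM in mLN. Its libraries did not overlap, but its log2 fold change of -0.49 ± 0.20 (SE) did not pass, with an adjusted p of 0.064 by edgeR.

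**Figure D2:**
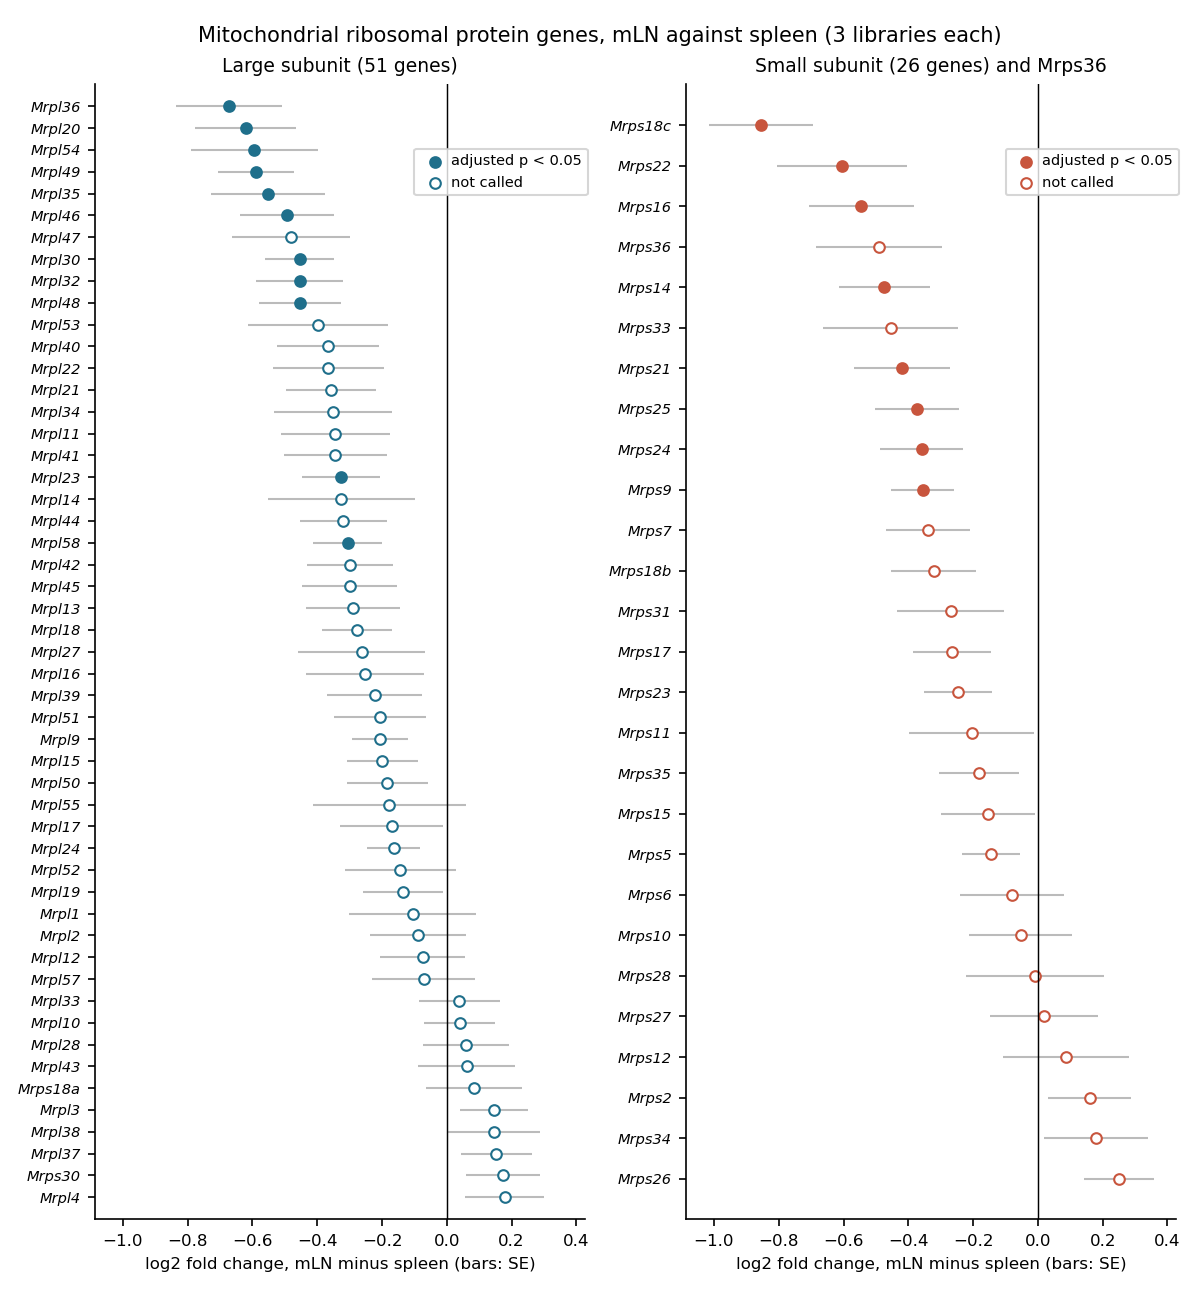
Log2 fold change (mLN minus spleen, horizontal axis) of each of the 78 genes with its SE as a bar, large subunit on the left and small subunit with Mrps36 on the right, filled where edgeR's adjusted p is under 0.05. All 19 filled points lie left of 0, from -0.86 for Mrps18c to -0.31 for Mrpl58, and Mrps26 at 0.25 is the rightmost open point.

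Mrps18c, a small subunit protein descended from bacterial S18, had the lowest log2 fold change on the count scale. Mrpl35 stood lower on log2(TPM + 1), at -0.62 against -0.58, on its median-centred form, at -0.87 against -0.83, and after removal of the length trend, at -0.59 against -0.46. After removal of the GC trend Mrpl54 stood lowest, at -0.86 against -0.73. Mrps18c is encoded on the plus strand of chromosome 5 from 100798627 to 100804471 in GRCm38. It read 20.9, 24.1 and 19.3 CPM in spleen and 10.3, 12.1 and 13.1 CPM in mLN. Every mLN library was below every spleen library. The log2 fold change was -0.86 ± 0.16 (SE), with an adjusted p of 0.000336 by edgeR. Of the 19 lower members it alone was called lower in every one of the 21 other settings tried. The adjusted p without any one library was at most 0.00529. Part of its exons, 250 nt, is shared on the same strand with the gene model Gm43511, which had 361 counts over all libraries against 1622 for Mrps18c, so the division of reads between them is uncertain.

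Among the large subunit genes called lower in every fit that left out a library, Mrpl36, Mrpl20 and Mrpl49 had the lowest log2 fold changes. Mrpl36, the counterpart of a very small bacterial large subunit protein (chromosome 13, 73328513 to 73332178, plus strand), read 22.1, 18.6 and 22.1 CPM in spleen and 11.4, 12.01 and 15.7 CPM in mLN. Mrpl20, whose bacterial counterpart joins early in assembly (chromosome 4, 155802878 to 155809975, plus strand), read 18.2, 23.5 and 21.1 CPM in spleen and 14.7, 13.5 and 12.6 CPM in mLN. Mrpl49, a protein found only in mitochondrial ribosomes (chromosome 19, 6053622 to 6057785, minus strand), read 35.9, 33.1 and 34.1 CPM in spleen and 22.9, 21.9 and 23.6 CPM in mLN. None of them had an mLN library as high as its lowest spleen library. Mrpl36 changed by -0.67 ± 0.16 (SE), with an adjusted p of 0.00330 by edgeR. Mrpl20 changed by -0.62 ± 0.16 (SE), with an adjusted p of 0.00410. Mrpl49 changed by -0.59 ± 0.12 (SE), with an adjusted p of 0.000560. Mrpl36 shares 30 nt of exon with Ndufs6 on the opposite strand and Mrpl49 shares 91 nt with Syvn1, and the strand setting of the counting is not given in the sources used here.

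Further members were lower in every fit that left out one library, namely Mrpl30, Mrpl48 and Mrps9. Mrpl30 (chromosome 1, 37890477 to 37898535, plus strand) read 71.5, 65.8 and 56.9 CPM in spleen and 53.2, 41.5 and 46.7 CPM in mLN. Mrpl48, a protein of the central protuberance of the large subunit (chromosome 7, 100545751 to 100608301, minus strand), read 25.0, 26.8 and 27.6 CPM in spleen and 19.3, 19.5 and 19.2 CPM in mLN. Mrps9, the counterpart of bacterial S9 (chromosome 1, 42851233 to 42905683, plus strand), read 52.2, 52.9 and 49.7 CPM in spleen and 41.3, 38.8 and 40.7 CPM in mLN. The groups did not overlap for any of them. Mrpl30 changed by -0.45 ± 0.11 (SE), with an adjusted p of 0.00239 by edgeR. Mrpl48 changed by -0.45 ± 0.13 (SE), with an adjusted p of 0.00955. Mrps9 changed by -0.36 ± 0.096 (SE), with an adjusted p of 0.00722. Mrpl48 shares 708 nt of exon with Rab6a, a far more highly counted gene on the opposite strand.

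**Figure D3:**
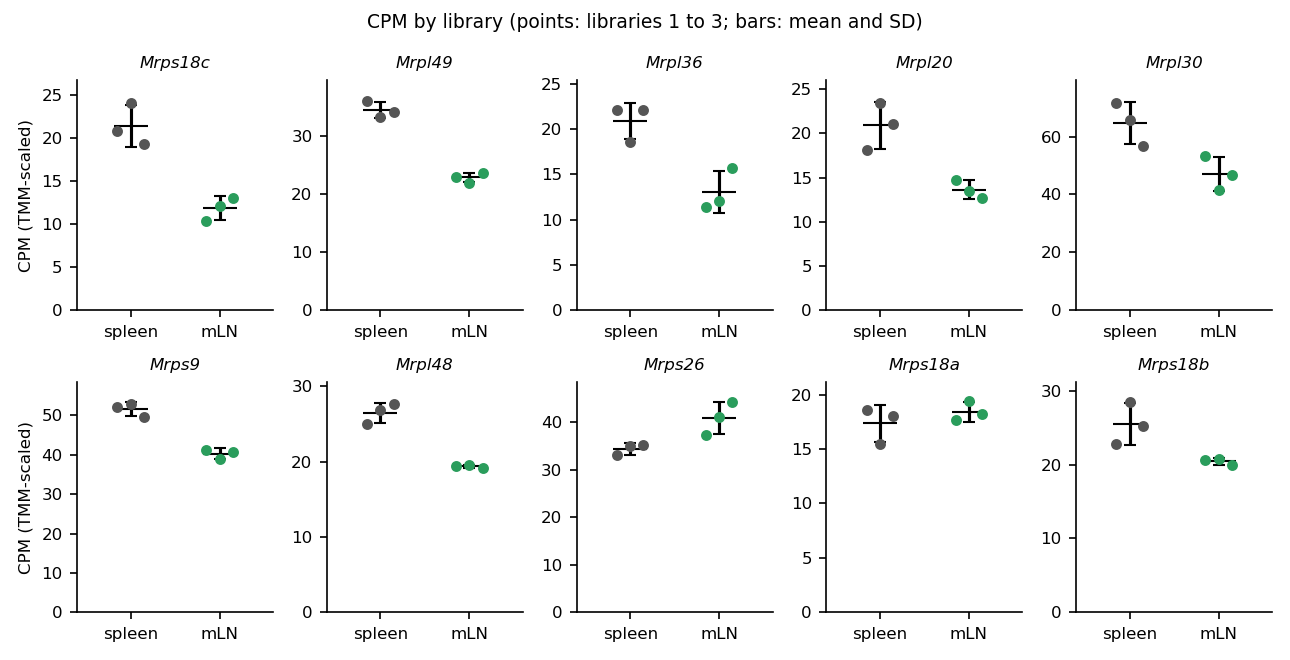
Normalized CPM (vertical axes, from 0) of 10 members in spleen libraries 1 to 3 (grey points) and mLN libraries 1 to 3 (green points), with bars for the mean and SD. Mrps18c, Mrpl49, Mrpl36, Mrpl20, Mrpl30, Mrps9, Mrpl48 and Mrps18b are lower in mLN without overlap, Mrps26 is higher without overlap, and Mrps18a overlaps.

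The other 12 lower calls each depended on at least 1 library. Mrps14 changed by -0.47 ± 0.14 (SE) with an adjusted p of 0.0129 by edgeR, which became 0.0597 without spleen replicate 1 and 0.0701 without mLN replicate 3. Mrps16 changed by -0.55 ± 0.16 (SE) with an adjusted p of 0.0132, which became 0.0679 without spleen replicate 2 and 0.0699 without mLN replicate 1. Mrpl46, which like Mrpl48 lies in the central protuberance, changed by -0.49 ± 0.15 (SE) with an adjusted p of 0.0134, which became 0.0833 without spleen replicate 2 and 0.0614 without mLN replicate 2. The rest were Mrpl23, Mrpl32, Mrpl35, Mrpl54, Mrpl58, Mrps21, Mrps22, Mrps24 and Mrps25. They changed by between -0.60 for Mrps22 and -0.31 for Mrpl58, an enzyme that frees stalled chains and is built into the large subunit. Mrps24 shares 226 nt of exon on the same strand with Urgcp, so the division of reads between them is uncertain. Urgcp had 3288.9 counts over all libraries against 3090.1 for Mrps24. Mrps21, the most abundant member per length, changed by -0.42 ± 0.15 (SE) with an adjusted p of 0.0366 by edgeR, which became 0.161 without spleen replicate 3 and 0.173 without mLN replicate 2. Mrpl54 changed by -0.59 ± 0.20 (SE) with an adjusted p of 0.0260, which became 0.0522 without spleen replicate 1, 0.0879 without spleen replicate 3 and 0.115 without mLN replicate 2. Mrpl35 changed by -0.55 ± 0.18 (SE) with an adjusted p of 0.0205, which became 0.0622 without spleen replicate 1, 0.0600 without spleen replicate 3, 0.0857 without mLN replicate 1 and 0.0648 without mLN replicate 3.

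Positive values were small. Mrps26, a mitochondria-specific small subunit protein (chromosome 2, 130563742 to 130568695, plus strand), read 33.0, 34.9 and 35.1 CPM in spleen and 37.4, 41.1 and 44.2 CPM in mLN, without overlap. Its log2 fold change of 0.25 ± 0.11 (SE) did not pass, with an adjusted p of 0.0869 by edgeR. Mrps34 and Mrpl4, a protein of the exit tunnel wall, followed with 0.18 ± 0.16 (SE) and 0.18 ± 0.12 (SE) and adjusted p-values of 0.443 and 0.308. Mrps34 shares 763 nt of exon on the same strand with Nme3, so its count is uncertain. Among the most abundant members, Mrpl24 changed by -0.16 ± 0.082 (SE) and Mrps23 by -0.25 ± 0.10 (SE), with adjusted p-values of 0.144 and 0.0799. Among those of lowest TPM, Mrpl1, Mrpl19 and Mrpl45 changed by -0.11, -0.14 and -0.30, with adjusted p-values of 0.735, 0.451 and 0.136. Reads of several of these genes could also come from a partner on the opposite strand, with which Mrpl46 shares 173 nt of exon (Mrps11), Mrpl24 594 nt (Rrnad1), Mrpl19 1962 nt (Gcfc2), Mrps25 4590 nt (Nr2c2), Mrps30 623 nt (B430218F22Rik) and Mrps34 1309 nt (Mapk8ip3).

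The 3 Mrps18 genes are related and named after bacterial S18, but only Mrps18c is counted above as having a bacterial counterpart, and Mrps18a and Mrps18b are counted among the genes without one. The products of Mrps18b and Mrps18c sit in the small subunit and that of Mrps18a in the large subunit. Mrps18a read 18.6, 15.5 and 18.01 CPM in spleen and 17.6, 19.4 and 18.2 CPM in mLN, and Mrps18b read 22.8, 28.4 and 25.2 CPM in spleen and 20.6, 20.8 and 19.9 CPM in mLN. Mrps18a overlapped between the groups, with a log2 fold change of 0.08 ± 0.15 (SE) and an adjusted p of 0.721 by edgeR. Mrps18b did not overlap, with -0.32 ± 0.13 (SE) and an adjusted p of 0.0720. The log2 ratio of Mrps18c to Mrps18a was 0.17, 0.64 and 0.10 in spleen and -0.77, -0.68 and -0.48 in mLN, a difference of -0.95 with no overlap. The log2 ratio of Mrps18c to Mrps18b differed by -0.54 and that of Mrps18b to Mrps18a by -0.40, also without overlap. By a two-sided exact permutation test each of the 3 ratios gave p = 0.1, the smallest that 3 against 3 libraries allow, and 0.1 after Benjamini-Hochberg adjustment over the 3. The ratios within a library do not depend on the scaling of its total.

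The fold changes went with transcript length. Members were short, with a median transcript length of 1140 nt against 2330 nt over all tested genes. Across all 12486 genes, longer transcripts had higher log2 fold changes, with a Spearman rho of 0.37, and across the 78 members rho was 0.27. These points share the same 6 libraries, and genes are not independent replicates. The 24 members of up to 800 nt had a median of -0.34 with 8 lower, where all 860 tested genes of that length had a median of -0.41 with 32.2% lower. The 18 members of 800 to 1200 nt had a median of -0.24 with 3 lower, beside -0.25 and 24.2% for all 1197 genes. The 28 members of 1200 to 2000 nt had a median of -0.21 with 6 lower, beside -0.12 and 17.8% for 3064 genes. The 8 members above 2000 nt had a median of -0.16 with 2 lower, beside 0.10 and 7.85% for 7365 genes. Up to 800 nt the members' median thus lay above that of all genes of like length. From 800 to 1200 nt the medians were nearly equal, and in the longer classes the members' medians lay below. These differences were not tested.

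**Figure D4:**
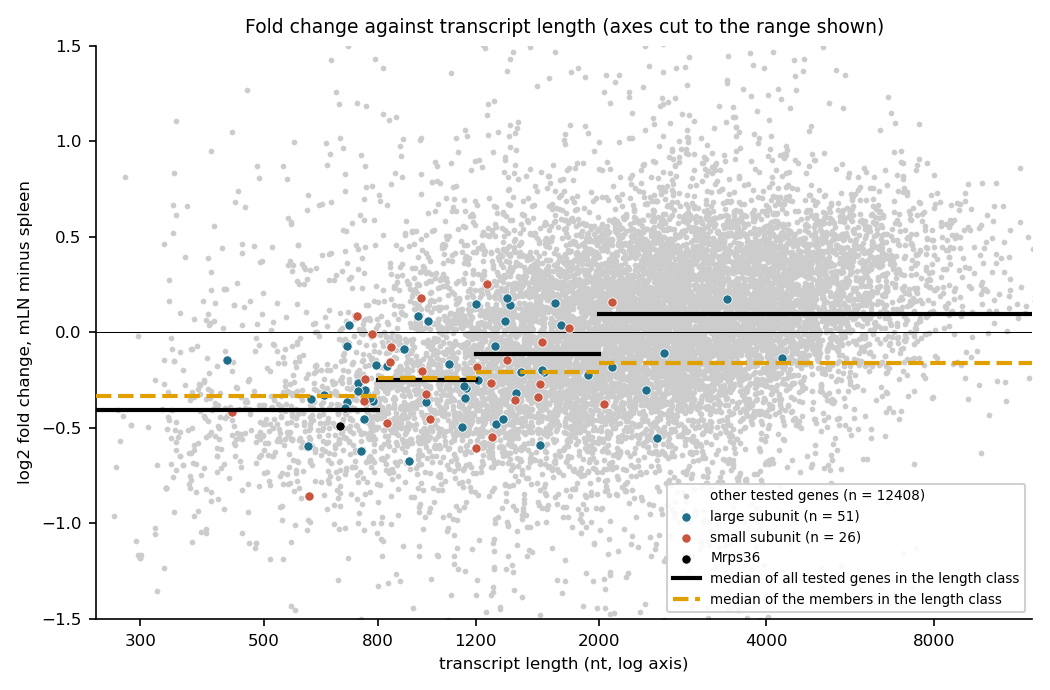
Log2 fold change (mLN minus spleen, vertical axis) against transcript length in nt (horizontal log axis) for all tested genes (grey), large subunit members (blue), small subunit members (red) and Mrps36 (black), with the median of all tested genes (solid line) and of the members (dashed line) in 4 length classes. The solid line climbs from -0.41 to 0.10, the dashed line from -0.34 to -0.16.

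With the trend on length removed from each library before edgeR's test, lower and higher calls were equal in number. Of the 78 members, 3 were lower and 3 higher, where 11.2% and 11.7% of all tested genes were called, and the median was -0.02, beside -0.01 for all tested genes. The lower ones were Mrpl49 with -0.49 and an adjusted p of 0.00381, Mrpl35 with -0.59 and 0.0167, and Mrps18c with -0.46 and 0.0388. The higher ones were Mrps26 with 0.42 and an adjusted p of 0.00629, Mrpl33 with 0.40 and 0.0443, and Mrps34 with 0.44 and 0.0473. Mrpl33, a large subunit gene of 711 nt, read 39.1, 40.7 and 38.6 CPM in spleen and 38.0, 49.99 and 34.2 CPM in mLN, so its groups overlapped and mLN replicate 2 alone was high. Of the shortest members, Mrpl52 with 430 nt went from -0.14 to 0.35 and Mrps21 with 439 nt from -0.42 to 0.05, neither called after the removal. Of the longest, Mrpl19 with 4268 nt went from -0.14 to -0.30 and Mrps30 with 3392 nt from 0.17 to 0.07, neither called. Removal of a trend on GC content instead gave 29 lower members and 1 higher, Mrps30, where 14.3% of all tested genes were lower and 17.9% higher. There Mrps26, Mrpl33 and Mrps34 were not called, at 0.12, 0.11 and -0.08, while Mrpl49, Mrpl35 and Mrps18c stayed lower. Removal of the length trend moved the members' Spearman rho with length from 0.27 to -0.27. It moved their rho with GC content from 0.23 to 0.49, and that of all tested genes from 0.30 to 0.41.

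The TPM values put the split elsewhere again. On log2(TPM + 1) with limma, 4 members were lower and 3 higher, where 3.08% and 22.1% of all tested genes were called. The median over all tested genes was shifted to 0.21 on this scale, and the members' median was -0.05, below that of all genes. The lower ones were Mrps18c, Mrps16, Mrpl36 and Mrpl20, and the higher ones Mrps26, Mrpl28 and Mrps2. After each library was centred on its median, 10 members were lower and none higher, where 7.58% and 6.39% of all tested genes were called. Without overlap between the groups in TPM, 6 members were lower and 10 higher, and 62 overlapped, where 6.22% of all tested genes were lower and 35.1% higher. Mrps26 read 39.2, 41.2 and 41.7 TPM in spleen and 54.9, 59.4 and 65.7 TPM in mLN. Mrps18c read 67.0, 83.8 and 79.4 TPM in spleen and 45.2, 55.5 and 51.8 TPM in mLN. Both were thus apart on the count and on the TPM scale, in opposite directions.

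Many of these genes start head to head with another gene. A protein-coding neighbour on the opposite strand began within 1000 nt of the start in GENCODE for 33 of 78 members, or 42.3%, and for 1929 of 10746 tested protein-coding genes. Pairs whose genes overlap at their starts were included, such as Mrpl48 and Rab6a, with 708 nt of shared exon. No stretch lies between the starts of such pairs, and reads of shared exon could come from either gene. In some pairs the starts are so close that the DNA between them is a single short stretch. For the lower calls Mrps18c, Mrpl49, Mrpl30 and Mrpl32 the stretch between the GENCODE starts of the member and of its neighbour Helq, Fau, Mitd1 or Psma2 is printed, with its letters read from the RefSeq promoter windows on GRCm38.p6. RefSeq places the starts of Mrpl30 and Mitd1 at the same ends, but those of the other pairs farther apart, at 100798759 for Mrps18c and 100798600 for Helq, 6057755 for Mrpl49 and 6057947 for Fau, and 14613037 for Mrpl32 and 14613242 for Psma2. Each is given 5′ to 3′ on the member's strand, and capitals mark a match to the ETS family motif CCGGAAG on either strand.
Mrps18c and Helq, chr5:100798599-100798626, plus strand: gtgaCTTCCGGcccgggaagcgcgggaa
Mrpl49 and Fau, chr19:6057786-6057843, minus strand: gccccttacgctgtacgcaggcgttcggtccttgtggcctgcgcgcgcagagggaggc
Mrpl30 and Mitd1, chr1:37890412-37890476, plus strand: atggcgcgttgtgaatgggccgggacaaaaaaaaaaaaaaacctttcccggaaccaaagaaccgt
Mrpl32 and Psma2, chr13:14613166-14613239, minus strand: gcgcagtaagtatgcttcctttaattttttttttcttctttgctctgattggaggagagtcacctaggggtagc

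Neighbours across such a stretch did not always go the same way. Fau, which encodes a cytosolic ribosomal protein fused to a ubiquitin-like domain, was lower together with Mrpl49, with a log2 fold change of -0.48 and an adjusted p of 6.02e-06 by edgeR. Psma2, a proteasome subunit, and Mrpl32 were lower by like amounts, -0.47 and -0.45, with adjusted p-values of 0.000240 and 0.0135. The call of Mrpl32 was lost without spleen replicate 2, at 0.0570, and without spleen replicate 3, also at 0.0570. Helq, a DNA helicase gene that starts 29 nt from Mrps18c in GENCODE, stood at 0.08 with an adjusted p of 0.706, and Mitd1, beside Mrpl30, at -0.19 with 0.202.

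Both genes were tested in 28 pairs, those that overlap at their starts included. Both were lower in 3, those of Mrpl49, Mrpl32 and Mrpl36. The genes of the Mrpl36 pair overlap at their starts in GENCODE. RefSeq instead puts the start of Mrpl36 at 73331009 and that of its neighbour at 73328482. These RefSeq starts lie farther apart than the distance limit used for the GENCODE starts. The neighbour of Mrpl36, Ndufs6, encodes a complex I subunit and stood at -0.45 with an adjusted p of 0.0131, which became 0.0893 without spleen replicate 1 and 0.0692 without mLN replicate 2. In 1 pair Mrpl48 was lower and Rab6a, a trafficking GTPase gene, higher at 0.24 with an adjusted p of 0.0351, which became 0.206 without spleen replicate 2 and 0.0535 to 0.0853 without spleen replicate 3 or any mLN library. In 4 pairs the member was lower and the neighbour not called. In 9 pairs the member was not called while the neighbour was, in 4 of them lower and in 5 higher, and in 11 pairs neither was called. Over all tested genes, 13.5% were called lower and 16.1% higher. Of those 9 neighbours, Tcp1, Ptcd2 and Zfp189, called lower, and Eme2 and Twnk, called higher, each lost the call without at least 1 library. The adjusted p then reached 0.0758 for Tcp1 without spleen replicate 2, 0.106 for Ptcd2 without mLN replicate 1, 0.125 for Zfp189 without spleen replicate 2, 0.301 for Eme2 without mLN replicate 3 and 0.0766 for Twnk without mLN replicate 2. The longer transcript of a pair had the higher log2 fold change in 21 of the 28 pairs, and the neighbour had the longer transcript in 22. Ppp1r10, whose transcript of 3855 nt starts 45 nt from Mrps18b in GENCODE, was higher at 0.62 with an adjusted p of 3.37e-05. RefSeq places these starts farther apart, at 35916440 for Mrps18b and at 35917196 or 35919272 for Ppp1r10.

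**Figure D5:**
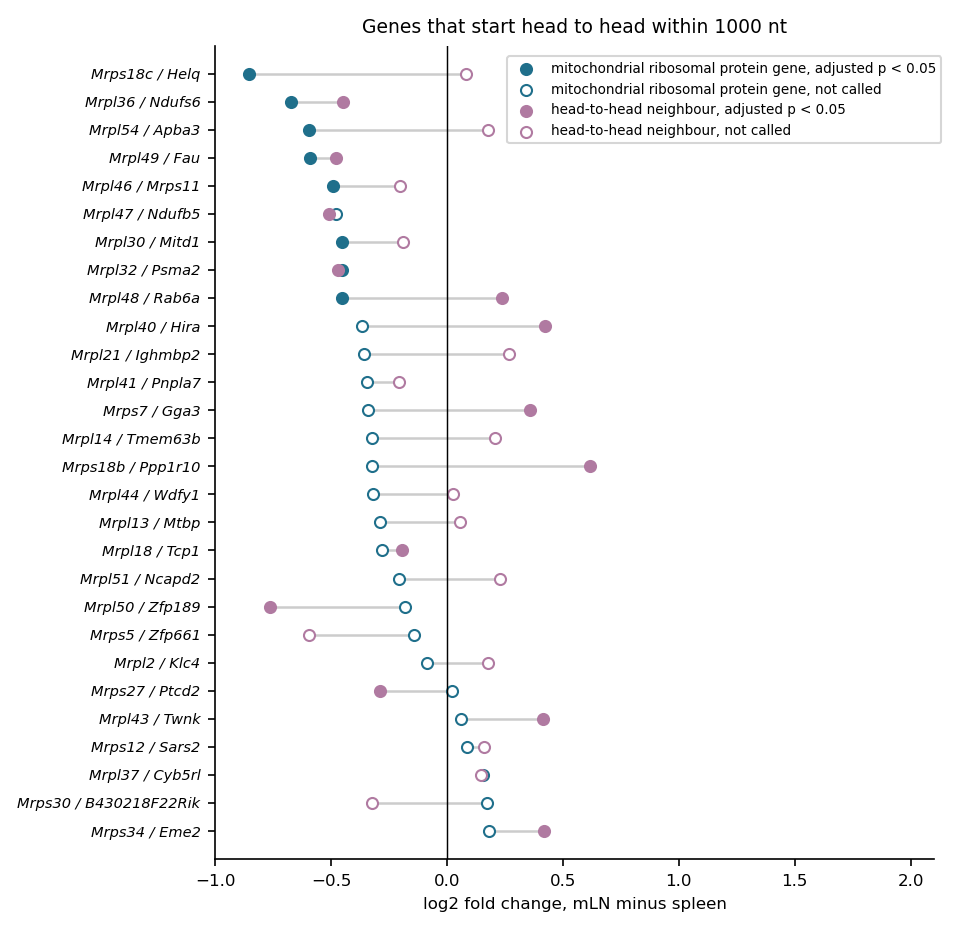
Log2 fold change (mLN minus spleen, horizontal axis) of 28 pairs of genes that start head to head within 1000 nt in GENCODE, with the mitochondrial ribosomal protein gene in blue, its neighbour in purple and filled points where edgeR's adjusted p is under 0.05. Pairs whose genes overlap at their starts are included. In 21 pairs the neighbour lies to the right of the member, and 3 pairs have both points filled left of 0.

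Motifs of factors known to act on nuclear genes of mitochondrial proteins were counted in RefSeq promoter windows, from 250 bases before to 50 bases after a start, on both strands. Windows were given for 69 members, 75 in all. The ETS family motif CCGGAAG, bound by the GABP complex, was in 34.7% of them, beside 19.1% of the windows of tested genes and 8.86% of all windows. The core motif of NRF1 with 1 variable base was in 17.3%, beside 10.6% and 4.6%, and its palindromic form, which the former includes, in 4.0%, beside 2.27% and 0.971%. The YY1 motif AAGATGGCG was in 10.7%, beside 3.28% and 1.4%. Among the 22 windows of members called lower, 27.3% held the ETS motif, 18.2% the NRF1 motif with the variable base and 13.6% the YY1 motif. A match describes the letters only and was not read as a bound site.

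Of the genes for factors that regulate nuclear genes of mitochondrial proteins, 9 of 10 were tested, and 5 were higher in mLN and none lower, with a median of 0.42. Over all tested genes 16.1% were higher and 13.5% lower. Of all tested genes above 2000 nt 24.2% were higher, and the median length in this list was 3650 nt. Pprc1, a coactivator of the PGC-1 family, read 75.8, 75.3 and 87.7 CPM in spleen and 130.4, 141.3 and 147.6 CPM in mLN, and rose by 0.81 ± 0.083 (SE) with an adjusted p of 3.24e-07 by edgeR. Myc rose by 0.73 ± 0.088 (SE) with an adjusted p of 2.29e-06, and Yy1 by 0.42 ± 0.068 (SE) with 7.55e-05. Ppargc1b and Esrra were the other higher ones, at 0.77 and 0.45, and Esrra was lost without mLN replicate 3, at 0.0832. Nrf1 stood at 0.16 and Gabpa at 0.12, with adjusted p-values of 0.200 and 0.376. Removal of the length trend left 5 higher and 1 lower, beside 11.7% and 11.2% of all tested genes, and the median at 0.26. On log2(TPM + 1) 8 were higher, beside 22.1% of all tested genes, with a median of 0.52. On its median-centred form 2 were higher, beside 6.39% of all tested genes, with a median of 0.27.

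The lists around the ribosome itself stand beside 13.5% of all tested genes called lower and 16.1% called higher by edgeR. Of 5 mitoribosome proteins with names outside the series, Chchd1 and Aurkaip1 were lower by edgeR, at -0.68 ± 0.14 (SE) and -0.40 ± 0.11 (SE) with adjusted p-values of 0.000865 and 0.0114. Neither passed with the length trend removed, and Aurkaip1 was lost without spleen replicate 3, at 0.0645, and without mLN replicate 2, at 0.0552. Dap3, a GTP-binding small subunit protein, stood at -0.20 with an adjusted p of 0.0842. Of 26 genes for assembly and ribosomal RNA modification, none was lower and 2 were higher, the helicase gene Dhx30 at 0.34 ± 0.084 (SE) with an adjusted p of 0.00377 and the GTPase gene Noa1 at 0.35 ± 0.12 (SE) with 0.0295, and the median of the 26 was -0.16. Without spleen replicate 2 Dhx30 was lost at 0.0501 and Noa1 at 0.167, and Noa1 also at 0.0729 without spleen replicate 1, at 0.0738 without mLN replicate 2 and at 0.105 without mLN replicate 3. Of the 26, 4 were lower and 2 higher with the GC trend removed, and none lower and 3 higher with the length trend removed. None was called on median-centred log2(TPM + 1). Of 15 genes for translation factors and other proteins linked to mitochondrial translation, 1 was lower and 1 higher. Mtif3, an initiation factor, was lower at -0.35 ± 0.12 (SE) and Letm1 higher at 0.27 ± 0.086 (SE), with adjusted p-values of 0.0357 and 0.0218. Neither passed with the length trend removed, where 1 other gene of the 15 was higher and none lower. On log2(TPM + 1) 4 of the 15 were higher and none lower, beside 22.1% and 3.08% of all tested genes. Letm1 was lost without spleen replicates 1 or 2 or mLN replicates 1 or 3, at 0.0672 to 0.0956, and Mtif3 without any library but spleen replicate 1, at 0.0595 to 0.107.

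Of 20 genes for charging mitochondrial tRNAs, 1 was lower and 2 higher, where 13.5% of all tested genes were lower and 16.1% higher. Lars2, the leucyl-tRNA synthetase, read 1057, 1069 and 965 CPM in spleen and 448, 377 and 481 CPM in mLN, and fell by 1.24 on the log2 scale with an SE of 0.075 and an adjusted p of 1.97e-09 by edgeR. Whether all counts assigned to Lars2 come from its own transcript, and none from mitochondrial ribosomal RNA, was not tested. Vars2 and Aars2, for valine and alanine, were higher at 0.48 and 0.57, with adjusted p-values of 0.00397 and 0.00515. Of 13 genes for mitochondrial transcription and DNA maintenance, 4 were lower and 3 higher. Polrmt, the mitochondrial RNA polymerase, read 32.5, 38.3 and 40.8 CPM in spleen and 58.7, 54.4 and 66.2 CPM in mLN, a change of 0.68 ± 0.11 (SE) with an adjusted p of 5.45e-05. Polg, the DNA polymerase, was higher at 0.55 with 4.92e-06, and Tefm, the elongation factor, was lower at -1.37 with 0.00131. All 3 kept their direction and their call with the length trend removed, as did Lars2, Vars2 and Aars2. On median-centred log2(TPM + 1) Tefm, Lars2 and Aars2 were still called, at -1.14, -1.22 and 0.68 with adjusted p-values of 0.0109, 0.000475 and 0.0271 by limma. Polrmt, Polg and Vars2 were not called there, at 0.69, 0.42 and 0.34 with 0.0552, 0.0812 and 0.367. Of the 13 genes for transcription and DNA maintenance, 2 were lower and none higher on that scale, and 1 lower and 4 higher without centring. Over all tested genes, 7.58% were lower and 6.39% higher on that scale, and 3.08% and 22.1% without centring.

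Related groups of short and more abundant transcripts also held lower calls. Over all tested genes 13.5% were lower, and 32.2% of those of up to 800 nt. With the length trend removed these shares were 11.2% and 8.26%. Of 85 tested cytosolic ribosomal protein genes of 88, 80 were lower and none higher, with a median of -0.53, and 48 were lower and 2 higher with the length trend removed. Of 78 tested nuclear oxidative phosphorylation genes of 87, 45 were lower and 2 higher, with a median of -0.38, and 8 were lower and 4 higher with the trend removed. The 13 messenger RNAs of the mitochondrial genome, which the mitochondrial ribosome translates, had a median of -0.79 with 10 lower and none higher. With the trend removed 9 were lower, with a median of -0.53. The difference between these groups and the members was not tested.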

How the data were processed

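Polyadenylated RNA of naive CD4+ T cells was sequenced in 3 spleen and 3 mLN libraries, made with a directional kit per the labels' protocols. The submitters' processing notes name STAR, RSEM and mm10 without versions. Strand setting and annotation release: not given in the sources used here. Expected counts, estimated by RSEM for each gene and not normalized, stand as deposited by the authors. The authors' deposited TPM and FPKM values scale them by effective length and depth, per the file headers, and FPKM values were used only for their sums. The deposited transcript length in nt was averaged over the 6 libraries.

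Symbols and coordinates came from GENCODE vM21 on GRCm38, which named 55227 of 55487 identifiers. By the rule 5 pseudogenes were left out. Expected counts were rounded, filtered with filterByExpr by group and scaled by TMM factors, and CPM values are over the scaled totals. Testing used quasi-likelihood F tests, two-sided, in edgeR (edgeR 4.0.16, limma 3.58.1, DESeq2 1.42.0, R 4.3.3), checked on simulated counts. Other tools were Python 3.11.15 with numpy 2.4.6, pandas 2.3.3, scipy 1.17.1 and matplotlib 3.10.9. Floors of 3 counts correspond to 0.150 to 0.227 CPM, counting error only.

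The members and lists were chosen with earlier results of these data known, and no list as a whole was tested. Genes named were the 10 lower calls with the smallest p, the 4 highest and 4 lowest TPM, the 3 largest fold changes each way, the Mrps18 genes, the 3 shortest and 3 longest, those called with the length trend removed, and up to 3 genes of each other list by p. Other names, including head-to-head neighbours, were chosen after their values were seen. The length trend was a loess fit (span 0.3) of log2 CPM on log10 length in each library, given to edgeR as an offset. Alternatives were upper-quartile or RLE factors, limma-voom, DESeq2, log2 TPM with pseudocounts of 1 and 0.1, median centring, no filter, a filter of 5 CPM in 3 libraries, the replicate block, length and GC trends, gene groups left out, each library left out, and a threshold of 0.01.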

Additional observations from a re-analysis of the deposited data

How the results depend on the processing

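The count of 19 lower members became 4 on log2(TPM + 1) and on log2(TPM + 0.1), 10 on median-centred TPM, 3 with the length trend removed, 29 with the GC trend removed, 32 with the replicate block, 7 with the block and the length trend removed, and 7 at a threshold of 0.01. It became 28 with upper-quartile factors, and it was 11 to 16 when single libraries were left out. The count of 0 higher members became 3 on log2(TPM + 1), 4 on log2(TPM + 0.1), 3 without the length trend, 1 without the GC trend, 1 with the block and 6 with the block and no length trend, and it was 0 to 0 without single libraries. In the same order of settings, the 11 lower large subunit genes became 2 and 2 on TPM, 2 with length, 18 with GC, 18 with the block, 4 with block and length and 5 at 0.01, and 7 to 10 without single libraries, and the 0 higher ones became 1, 2, 1, 1 and 4 (TPM + 1, TPM + 0.1, length, GC, block with length). The 8 lower small subunit genes became 2, 2 and 2 on the TPM scales, 1 with length, 13 with the block, 3 with block and length and 2 at 0.01, and 4 to 7 without single libraries, and the 0 higher ones became 2, 2, 2, 1 and 2 (TPM + 1, TPM + 0.1, length, block, block with length). The medians of all members, the large and the small subunit were -0.31, -0.31 and -0.30 with upper-quartile factors, -0.047, -0.049 and -0.033 on log2(TPM + 1), -0.050, -0.051 and -0.035 on log2(TPM + 0.1), -0.023, -0.037 and -0.0013 once the length trend was removed, and -0.023, -0.040 and 0.0023 with the replicate block and the length trend removed, where the last changed sign. On median-centred TPM the median of all members was -0.29. Without single libraries the medians ran from -0.28 to -0.23, -0.32 to -0.23 and -0.29 to -0.21. Mrps21 changed sign to 0.051 (adjusted p 0.841) without the length trend and to 0.048 (0.832) with the block added. The cause of these moves was not tested. Calls among the members under the block included all 19 of the reported ones. Replicate numbers of the labels were not taken to pair the libraries, since the labels do not say that they do. Deviations of same-numbered libraries correlated at 0.01, -0.003 and 0.054, and those of differently numbered ones at -0.041 to 0.032. Such correlations cannot exclude pairing. RLE factors, DESeq2, limma-voom, no filter, the stricter filter, and leaving out markers of other cell types or cytosolic ribosomal and mitochondrial genes gave 20 to 26 lower members and none higher. Depth limits the members with few counts, such as Mrpl55, whose SE was 0.24.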
